A study of Mus musculus with 10 samples.

Results

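Chylomicrons carry dietary fat out of the gut, and 6 of the genes needed to build and dress them were followed here in mouse terminal ileum: Apob, Mttp, Apoa4, Apoa1, Apoc2 and Apoc3. They were taken by symbol from 36401 genes listed per library, and each symbol had 1 Ensembl ID (Apob ENSMUSG00000020609, Mttp ENSMUSG00000028158, Apoa4 ENSMUSG00000032080, Apoa1 ENSMUSG00000032083, Apoc2 ENSMUSG00000002992, Apoc3 ENSMUSG00000032081). All 6 passed the filter on low counts, and the lowest count of any of them in any library was 274, for Apoc2.

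The samples came from male C57Bl6 mice, 8 weeks old at surgery, that had been made obese on feed with 60% of its energy from fat. The labels of the samples give 6 weeks of this feed before surgery, while the design text reads as 8 weeks. One group of 5 had vertical sleeve gastrectomy (VSG), in which most of the stomach is removed along its outer curve, and ate freely afterwards. The other 5 had sham surgery and were pair-fed to the VSG mice (SPF, called sham here). Both groups received liquid Osmolite around surgery. About 8 weeks later all were fasted overnight, gavaged with 0.5 mL of Osmolite and sampled after 1 hour, so every library describes the ileum shortly after a liquid meal and none describes it fasted. There was no unoperated group and no freely fed sham group, so surgery cannot be told apart from feeding pattern. The labels give each library as the sample of a mouse, and p-values measure the spread between these samples.

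Enterocytes take up fatty acids and monoglyceride, rebuild them into triglyceride in the endoplasmic reticulum and load the fat onto apolipoprotein B as it is made. The particle then leaves in large transport vesicles coated with the COPII complex and enters the lymph. Fat absorption is known to be greatest in the upper small intestine, and the ileum is better known for taking up bile acids.

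Sequences upstream of these genes are shown because 4 of the 6 genes were high in the same libraries, as described further on, and the promoters of those genes can be set beside the others. The RefSeq promoter table (build GRCm38.p6, not the mm9 build of the counts) held 5 of the 6 genes, and Apoc3 was not matched. The 250 bases before the start that RefSeq annotates were searched. Each line gives the longest stretch of them outside exons of coding transcripts (GENCODE M21), 5′ to 3′ on the gene's own strand. Capitals mark matches, on either strand, to any of 5 motifs. Nuclear receptors bind the half-site AGGTCA, and the HNF4 family binds forms such as CAAAGNNCA. The GATA family binds GATAA. The other motifs were the TATA box, TATAAA, and the core of the element bound by CREB-type factors, TGACGT.

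Apoa4, chr9:46240594-46240695, plus strand: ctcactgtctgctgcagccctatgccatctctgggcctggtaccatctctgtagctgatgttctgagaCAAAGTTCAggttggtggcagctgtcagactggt
Apoc2, chr7:19677942-19678082, minus strand: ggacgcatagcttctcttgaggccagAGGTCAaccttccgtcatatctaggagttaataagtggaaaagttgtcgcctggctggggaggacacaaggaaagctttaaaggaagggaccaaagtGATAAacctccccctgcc
Mttp, chr3:138143419-138143447, minus strand: ACGTCAtcggactgcgctaactccaaacc
Apoa1, chr9:46228380-46228579, plus strand: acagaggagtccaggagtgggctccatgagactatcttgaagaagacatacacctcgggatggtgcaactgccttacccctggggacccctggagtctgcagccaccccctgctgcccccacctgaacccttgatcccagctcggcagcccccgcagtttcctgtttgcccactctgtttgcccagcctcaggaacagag
Apob, chr12:7977427-7977647, plus strand: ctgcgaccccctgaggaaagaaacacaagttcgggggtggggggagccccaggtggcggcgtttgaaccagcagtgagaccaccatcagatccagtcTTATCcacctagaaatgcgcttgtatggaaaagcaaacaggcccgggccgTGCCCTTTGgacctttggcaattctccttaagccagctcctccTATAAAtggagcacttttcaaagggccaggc

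No motif was found in all 3 of Apoa4, Apoc2 and Mttp. The Apoa4 window held CAAAGTTCA 182 bases before the start, and the Apob window held the same motif on the opposite strand at 103 bases, as TGCCCTTTG. Among 32817 mouse promoter windows of this length, 5.49% held it. The Apoc2 window held AGGTCA at 115 bases before the start, as did 14% of all windows, and GATAA at 18 bases, as did 22.6%. Apob also held TTATC, which is GATAA on the opposite strand, at 153 bases, and TATAAA at 60 bases, a motif of 12.4% of windows. In the Mttp window the only match was ACGTCA at 29 bases, which is TGACGT on the opposite strand and was found in 6.46% of windows. The Apoa1 window held none of these letters. None of the matches overlapped another. These are matches of letters in short windows, not measured binding sites. GENCODE also places coding starts elsewhere, while the positions above count from the RefSeq start. The 1 GENCODE start of Apoa4 lies 148 bases before it. Those of Apoa1 lie 50 bases before and 91 after it, and those of Apob 29 before and 102 and 34682 after. Apoc2 has starts 0, 1077 and 4021 bases after it, and Mttp 30 and 12041 bases after. Counts per gene do not show which start was used.

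Library totals ran from 15364651 to 34058181 estimated counts, and values below are CPM, counts scaled to a common library size, after TMM normalisation, a scaling that corrects for differences in library composition. The tissue carried the markers of its label in part. Vil1, which encodes the microvillus protein villin, stood at 1827 to 4042 CPM in all 10 libraries. The ileal genes Fabp6 (ileal bile acid binding protein) and Slc10a2 (apical bile acid transporter) stood at 2558 to 6112 and 192 to 520 CPM in 7 libraries, but at 39.0 to 62.1 and 3.90 to 15.5 CPM in VSG 2, sham 2 and sham 4. In the same 3 libraries Gata4, which encodes a GATA factor that marks jejunum and duodenum, had 109.5 to 183.5 CPM, while the others had 1.72 to 6.28, and the lactase gene Lct had 1451 to 2643 CPM, while the others had 3.72 to 24.7. A limit of 20 CPM of Gata4 therefore separated the 3 from the 7 with no library near it, and the 7 were VSG 1, 3, 4 and 5 with sham 1, 3 and 5. The 3 are called the Gata4-high libraries below. They go against the markers of the labelled tissue, so each surgery result is given with and without them. In sham 3, 661 genes with transcripts of at least 8000 bases had a median log2 deviation of -0.80 and 2280 genes of at most 1500 bases one of 0.53, while the same medians in the other 9 libraries lay between -0.13 and 0.21.

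Apob and Mttp act at the core of the particle: Apob encodes the large protein that wraps each particle, and Mttp encodes the transfer protein that puts lipid onto it. Apob stood at 2873, 4682, 4761, 4914 and 4921 CPM in VSG 1 to 5 and at 3135, 6937, 1754, 3499 and 1990 CPM in sham 1 to 5. VSG 2 to 5 lay close together, VSG 1 was apart below them, and the sham libraries were spread on both sides. The lowest Apob value was that of sham 3, the library with low long transcripts, and the Apob transcript has 13934 bases. Mttp stood at 622, 2459, 1426, 1037 and 994 CPM in VSG 1 to 5 and at 567, 2813.5, 531, 2909 and 497 CPM in sham 1 to 5. Its 3 highest values were those of the Gata4-high libraries, and the groups overlapped across all 10.

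Apoa4 and Apoa1 encode surface proteins. Apolipoprotein A-IV is made by the gut during fat absorption, and apolipoprotein A-I is the main protein of high-density lipoprotein, made by gut and liver. Apoa4 stood at 621, 17733, 9284, 1729 and 2434 CPM in VSG 1 to 5 and at 271.5, 23902, 637, 16214 and 208.0 CPM in sham 1 to 5. It ranged 115-fold between the highest and the lowest library. In share of all counts it was the most abundant of all genes in VSG 2, sham 2 and sham 4, the second in VSG 3, and number 715 in sham 5. Apoa1, of the same gene cluster on chromosome 9, stood at 6525, 7876, 5667, 8594 and 10586 CPM in VSG 1 to 5 and at 4211, 10342, 8432, 5719 and 3357 CPM in sham 1 to 5. It was among the 12 most abundant genes in every library and ranged 3.15-fold, with high and low values in both groups.

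Apoc2 and Apoc3 encode small proteins with opposite roles in the blood: apolipoprotein C-II activates lipoprotein lipase, and apolipoprotein C-III inhibits the breakdown and clearance of the particles. Apoc2 stood at 26.8, 881, 724, 20.55 and 40.05 CPM in VSG 1 to 5 and at 8.90, 1066, 34.1, 1416 and 8.40 CPM in sham 1 to 5. Its values fell into 4 libraries of 724 CPM or more and 6 of at most 40.05 CPM, with nothing between. Apoc3 stood at 26.25, 347, 75.1, 51.0 and 54.2 CPM in VSG 1 to 5 and at 19.9, 370, 50.9, 500.3 and 20.2 CPM in sham 1 to 5. The 3 Gata4-high libraries were again at the top, and here VSG 3 lay with the low ones.

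**Figure D1:**
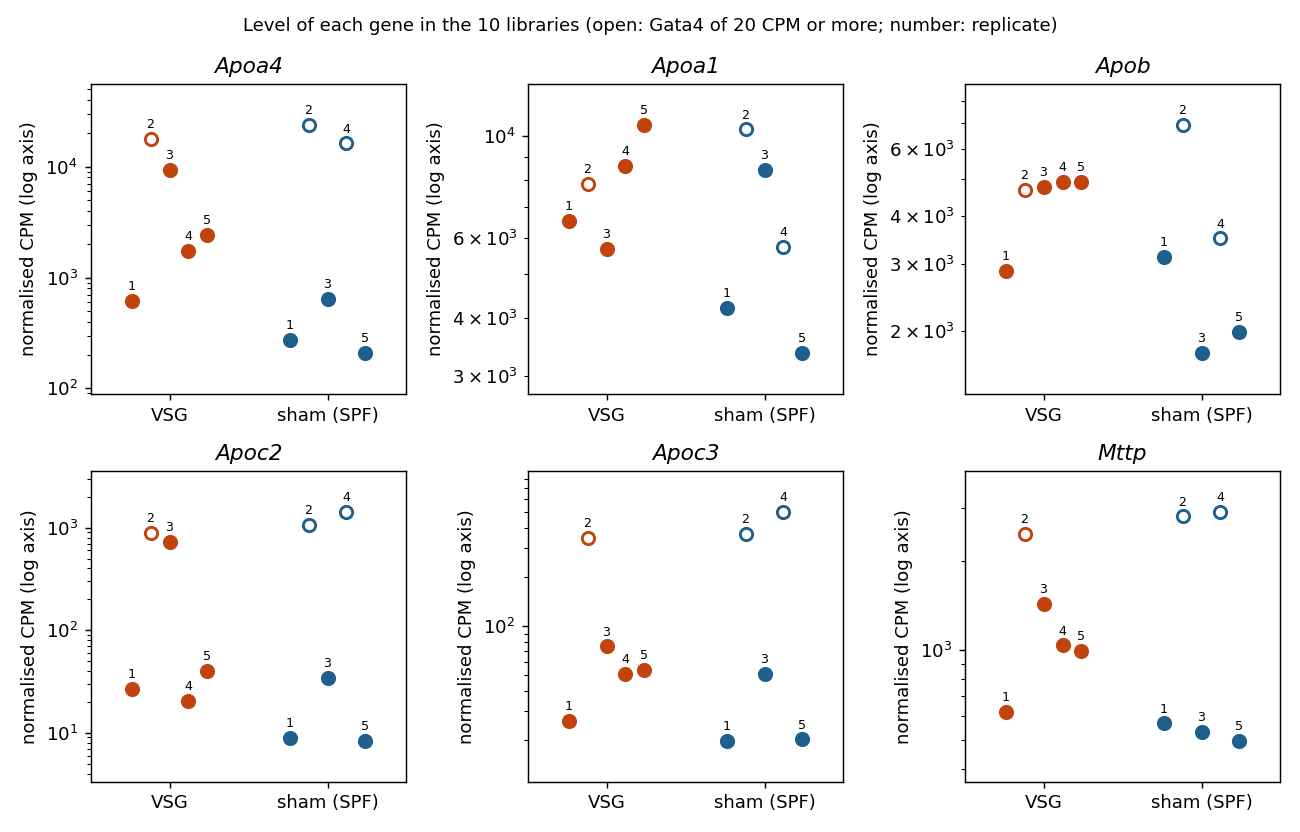
Normalised CPM (log axis) of each of the 6 genes in the 5 VSG and 5 sham libraries, 1 point per library with its replicate number, open where Gata4 was 20 CPM or more. The open points are the top 3 for Apoa4, Apoc2, Apoc3 and Mttp, and mix with the filled points for Apoa1 and Apob.

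Together the 6 genes took between 0.686% of all counts, in sham 5, and 4.27%, in sham 2. The 3 Gata4-high libraries held the 3 highest shares, 3.22% to 4.27%, and the other 7 held 0.686% to 2.11%. Levels of different genes can be compared only per transcript length. Per kilobase of transcript (1815 bases for Apoa4, 1035 for Apoa1, 13934 for Apob, 727 for Apoc2, 709 for Apoc3 and 3072 for Mttp), the median over the 7 libraries put Apoa1 first at 6304 CPM per kilobase and Apoa4 next at 351. Their ranges overlapped (3243 to 10228 and 115 to 5115), through VSG 3 alone on the side of Apoa4. Within each of the 7 libraries Apoa1 was above Apoa4, narrowly so in VSG 3 (5475 against 5115). Apob at 225 and Mttp at 202 followed, then Apoc3 at 71.8 and Apoc2 at 36.9. The ranges of Apob (126 to 353), Mttp (162 to 464) and Apoa4 (115 to 5115) overlapped, so the order of these 3 was not separated by the spread between libraries. The ranges of Apoc3 (28.0 to 106) and Apoc2 (11.6 to 996, with VSG 3 again at the top) overlapped too. Within libraries Apoc3 was above Apoc2 in all of the 7 but VSG 3, narrowly so in VSG 1 (37.0 against 36.9). In the 3 Gata4-high libraries the order of the medians was Apoa4 (9770), Apoa1 (7610), Apoc2 (1466), Mttp (916), Apoc3 (522) and Apob (336). The ranges of Apoa4 and Apoa1 overlapped (8933 to 13169 and 5525 to 9992), as did those of Apoc3 and Apob (490.0 to 706 and 251 to 498). Within each of the 3 libraries Apoa4 was above Apoa1 and Apoc3 above Apob.

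Between the Gata4-high libraries and the other 7, Apoa4, Apoc2, Apoc3 and Mttp differed without overlap and Apoa1 and Apob did not. The ratio of the medians was 39.7 for Apoc2, 27.8 for Apoa4, 7.27 for Apoc3 and 4.52 for Mttp, against 1.49 for Apob and 1.21 for Apoa1. These 3 libraries are not a group of the study, so the ratios are descriptions with no test. Among 15678 genes, 6.08% had each of the 3 above each of the 7. VSG 3 came next after the 3 for Apoa4, Apoc2, Apoc3 and Mttp, an order that 1.23% of genes showed. Its own Gata4, at 6.28 CPM, was the highest of the 7 but well below 20 CPM, and its Lct was 15.8 CPM. For Apoc2, VSG 3 exceeded each of the other 6 libraries by at least 5-fold, as it did for 13 genes (0.0829% of 15678).

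**Figure D2:**
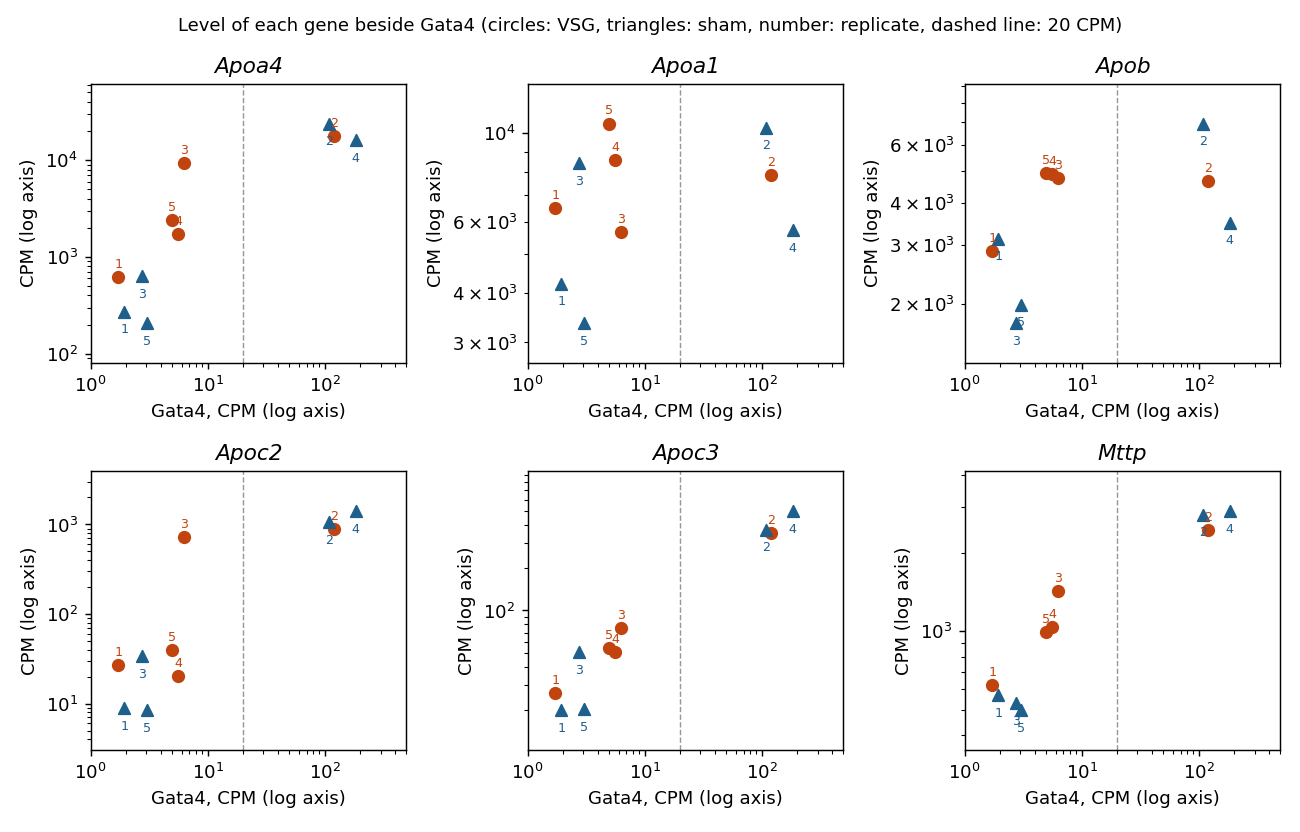
CPM of each of the 6 genes against CPM of Gata4 in the same library (both log axes), with circles for VSG, triangles for sham, replicate numbers beside the points and a dashed line at 20 CPM. For Apoa4, Apoc2, Apoc3 and Mttp the 3 libraries to the right of the line are above all others, and VSG 3, left of the line, is next below them.

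The comparison of VSG with pair-fed sham over all 10 libraries asks how ileal expression differs after surgery at matched food intake. None of the 6 genes differed beyond the spread between libraries, and the groups overlapped for each of them. Means were 4430 ± 876 CPM in VSG and 3463 ± 2078 in sham for Apob, and 1307.5 ± 704 and 1463 ± 1277 for Mttp (SD, n = 5 each). Apoa4 was at 6360 ± 7206 in VSG and 8247 ± 11121 in sham, with the higher mean in sham but the higher median in VSG (2434 against 637). Apoa1 was at 7849 ± 1908 and 6412 ± 2923, Apoc2 at 339 ± 427 and 507 ± 682, and Apoc3 at 111 ± 133 and 192 ± 227. For Apoa4, Apoc2 and Apoc3 the SD exceeded the mean in both groups. In bulk tissue, fewer cells of a type and less RNA per cell cannot be told apart.

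On the log2 scale, edgeR's quasi-likelihood test gave Apob a fold change of 0.36 ± 0.37 (SE; adjusted p = 0.977) and Mttp one of -0.16 ± 0.60 (adjusted p = 0.991). For Apoa4 it was -0.37 ± 1.31 (edgeR adjusted p = 0.991), with a 95% interval from -3.25 to 2.50, so neither a large rise nor a large fall could be separated from 0. Apoa1 had 0.29 ± 0.35, Apoc2 -0.58 ± 1.5 and Apoc3 -0.79 ± 0.99. Of the sham libraries 2 of 5 were Gata4-high, and of the VSG libraries 1 of 5. The sign of Apoa4, Apoc2 and Mttp changed without sham 4, to log2 fold changes of 0.056, 0.31 and 0.27. Without sham 2 the sign of Apoa4 and Mttp changed, to 0.56 and 0.22, while Apoc2 stayed below 0, at -0.11. Mttp also changed sign without VSG 1, to 0.03. Leaving out VSG 2 moved Apoa4 to -1.23, Apoc2 to -1.32, Apoc3 to -1.90 and Mttp to -0.52. No member passed an adjusted p of 0.05, against 0.0% of 15678 genes. By unadjusted p below 0.05 there were also 0 of 6, against 595 genes, 295 higher in VSG (1.88%) and 300 lower (1.91%). With library totals in place of TMM the split was 183 higher of 569, and with upper-quartile factors 197 of 647. DESeq2 called 11 genes, none of the 6 among them (0.0704%), limma-voom 0, and limma-voom with sample weights 1.

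In the 7 libraries with Gata4 below 20 CPM all 6 genes had higher fitted values in VSG, though none passed the adjusted threshold. A log2 fold change above 0 was found for 43.2% of 15911 genes, and the median over all genes was -0.05. Apoa4 was at 3517 ± 3916 CPM in VSG (SD, n = 4) and 372 ± 232 in sham (SD, n = 3), and Mttp at 1020 ± 329 and 532 ± 35.1. Every VSG library was above every sham library for Mttp, by a narrow margin of 622 against 567 CPM, and 4.32% of all genes separated in this way. The margin depended on the scaling: by library totals VSG 1 stood at 617 CPM and sham 1 at 629, so the groups overlapped. Apoa4 went the other way, with an overlap of VSG 1 (621) and sham 3 (637) by TMM and none by library totals (616 against 566). Apoa1, Apob, Apoc2 and Apoc3 overlapped by both scalings.

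Fold changes in these 7 libraries were largest for Apoc2 and Apoa4. Apoa4 had a log2 fold change of 3.24 ± 0.92 (SE; edgeR adjusted p = 0.633), and Mttp one of 0.94 ± 0.27 (edgeR adjusted p = 0.633). Apob had 0.93 ± 0.30 (edgeR adjusted p = 0.633), with means of 4367 ± 999 and 2292.5 ± 739 CPM. Apoc2 had 3.57 ± 1.42 (edgeR adjusted p = 0.696), a value that rested on VSG 3: without it the log2 fold change was 0.76. The same omission took Apoa4 from 3.24 to 2.10 and Mttp from 0.94 to 0.73. Apoc3 and Apoa1 had 0.77 ± 0.43 and 0.56 ± 0.38, with edgeR adjusted p = 0.749 and 0.788. Without sham 3 Apoa1 moved to 1.06 and Apoc3 to 1.37, while Apob moved to 0.77. Without sham 5 Apoa1 was at 0.31.

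At an unadjusted p below 0.05, Apoa4, Apob, Apoc2 and Mttp were higher in VSG, 4 of the 6, against 3.70% of all genes. None was lower, against 3.26%. By adjusted p below 0.05 edgeR called 0 of 15911 genes (0.0%), while 1107 had an unadjusted p below 0.05, 588 of them higher in VSG. By library totals 330 of 1152 were higher, and with upper-quartile factors 344 of 1248. DESeq2 called 83 genes (0.523%), limma-voom 2 and limma-voom with sample weights 5. None of the 6 genes was called by any of them, though DESeq2 gave Apoc2 no adjusted p, and over the settings tried the adjusted p of Mttp ran from 0.0801, in DESeq2, to 1.0. The difference between the results with and without the 3 libraries was not tested, since both rest on the same 7 libraries.

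**Figure D3:**
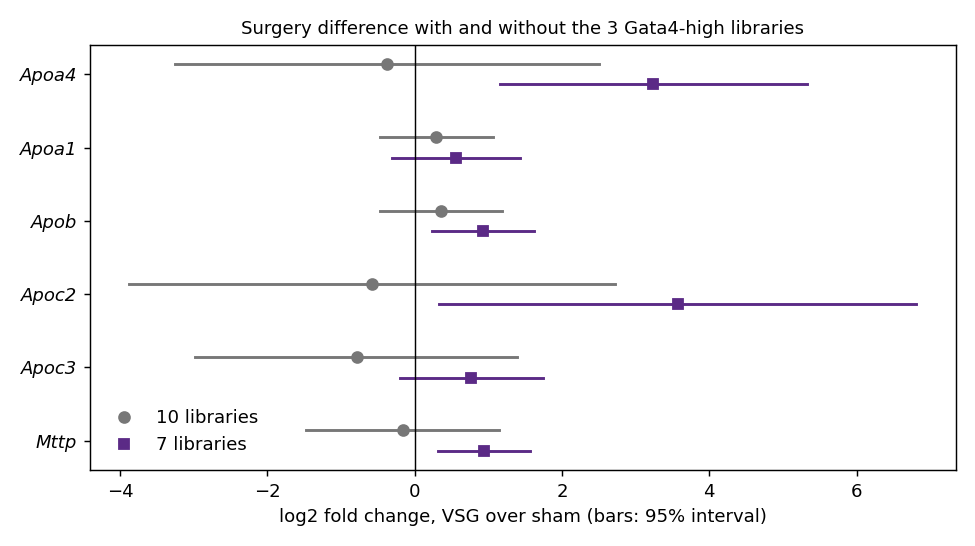
Log2 fold change of VSG over sham for each gene from edgeR, with 95% intervals as bars, over all 10 libraries (circles) and over the 7 libraries with Gata4 below 20 CPM (squares). The intervals over 10 libraries all cross 0, and over 7 libraries those of Apoa4, Apob, Apoc2 and Mttp lie above 0 before adjustment over all genes.

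Measures of tissue makeup in the same 7 libraries are given beside these results. None of the marker genes passed the adjusted threshold in edgeR, though DESeq2 called Ang4 and Alb, as given below. Gata4 itself stood at 1.72, 6.28, 5.63 and 5.00 CPM in VSG 1, 3, 4 and 5 and at 1.95, 2.76 and 3.04 in sham 1, 3 and 5. VSG 1, with the lowest Gata4, was also the lowest of the 4 VSG libraries for Apoa4, Apob, Apoc3 and Mttp. With log2 Gata4 as a covariate the log2 fold change in the 7 libraries was 1.5 for Apoa4, 1.41 for Apoc2, 0.68 for Apob, 0.51 for Mttp, 0.45 for Apoa1 and 0.14 for Apoc3. In all 10 libraries the same covariate gave 1.91 for Apoa4, 2.13 for Apoc2, 0.19 for Apoc3 and 0.46 for Mttp, opposite in sign to the values without it. The 7 upper small intestine markers, of which Pdx1 was at 0 in VSG 1, VSG 3 and VSG 4, summed to 28.25 to 53.2 CPM in VSG and 30.0 to 60.7 in sham, so the whole list did not separate the groups.

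The 8 enterocyte markers, all detected, summed to 22923 to 28223 CPM in the 4 VSG libraries and 13467 to 25028.5 in the 3 sham libraries. With their summed log2 level as a covariate, Apoa4 had a log2 fold change of 2.80, Apoc2 3.25, Mttp 0.84 and Apob 0.81, and Apoa1 had -0.065. Apoa1 was thus the member whose difference was no longer positive. Crypt markers (4 of 4 detected) summed to 137.5 to 438 CPM in VSG and 292.5 to 651.5 in sham, and Paneth cell markers (3 of 3) to 1024 to 4975 against 5864 to 7532. All 3 Paneth cell markers were lower in VSG at an unadjusted edgeR p below 0.05, against 3.26% of all genes. Of these, Ang4 had a log2 fold change of -1.94 (edgeR adjusted p = 0.633, DESeq2 adjusted p = 0.0158). Smooth muscle markers (5 of 5) summed to 501.5 to 1102 CPM in VSG and 189 to 2929 in sham, with sham 5 at the top and lowest for Apoa4, Apoa1, Apoc2 and Mttp. The part of crypt, Paneth and muscle content in the results was not tested.

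Liver makes most of these proteins too, and Alb, which encodes albumin, was used as its defining marker. It stood between 0.104 and 10.4 CPM, highest in VSG 5, with a log2 fold change of 3.76 in the 7 libraries (edgeR adjusted p = 0.633, DESeq2 adjusted p = 0.0237). The 6 hepatocyte markers, none at 0, summed to 29.9 to 104 CPM in VSG and 22.1 to 37.7 in sham. The highest sum was that of VSG 3, also the library with the highest Apoa4 of the 7. Most of it was Tat, at 81.7 CPM, with Cyp2e1 at 12.7 and Alb at 0.203. In the 7 libraries 4 of the 6 markers were higher in VSG, beside 43.2% of all genes. The 2 lower ones were Ttr (log2 fold change -0.15) and Serpina1a (-0.40). The part of these genes in the results was not tested. The 5 pancreas and 5 stomach markers were each under 1 CPM in all libraries, and 3 of the stomach markers were at 0.

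Genes that help to fold, edit and export the particle were mostly slightly higher in VSG, and none passed the adjusted threshold. Of 19 listed, 17 were matched and tested. In the 7 libraries all 17 had a higher fitted value (16 with library totals or upper-quartile factors), from 0.00 for Sar1a to 0.76, at a list median of 0.37 (log2). Beside them, 43.2% of all genes were above 0, with a median of -0.05. Over 10 libraries 12 of 17 were higher, with a median of 0.09, against 41.9% of all genes. With the enterocyte covariate 8 of 17 were higher over 10 libraries and 14 in the 7. Unadjusted p was below 0.05 for 2 in the 7 libraries, both higher, as for 3.70% of all genes: Sec23a (0.57 ± 0.19, SE) and Sec24d (0.76 ± 0.29), both of the COPII coat. Sham 3, the library with low long transcripts, was the lowest of the 7 for Sec23a (96.7 CPM) and Sec24d (49.4). It was also the lowest for Sec24a, Sec24b, Sec24c, Mia2 and A1cf, and the highest for Sar1a and Preb. The part of transcript length in this list was not tested. P4hb, the small subunit of the transfer protein complex and a disulfide isomerase, stood at 1020 to 2480 CPM in VSG and 877 to 2920 in sham (log2 fold change 0.51 ± 0.26 in the 7 libraries). Like Mttp, its partner, it was highest in the 3 Gata4-high libraries, at 2480 to 2920 CPM. Surf4, a cargo receptor of lipoprotein export, had 0.27 ± 0.17, and Apobec1, which edits the Apob message to give the short gut form, 0.39 ± 0.28. The coat genes Sec24a, Sec23b and Sec24c had 0.68 ± 0.31, 0.23 ± 0.14 and 0.24 ± 0.14.

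Genes that supply triglyceride also mostly had higher fitted values in VSG. In the 7 libraries 12 of 13 were higher in VSG, at a list median of 0.44 (log2), and over 10 libraries 10 of 13, with a median of 0.12. The shares of all genes above 0 were 43.2% and 41.9%. None passed the adjusted threshold. Unadjusted p was below 0.05 in the 7 libraries for 4 that were higher, as for 3.70% of all genes: the fatty acid binding proteins Fabp2 (1.30 ± 0.45) and Fabp1 (2.41 ± 1.06), the acyl-CoA synthetase Acsl5 (0.67 ± 0.25), and Dgat2 (0.77 ± 0.25), which makes triglyceride and is named here after its values were seen. Fabp1 followed Apoc2 and Apoa4 across libraries, from 12.4 CPM in sham 1 to 649 in VSG 3 and 1949 to 4304 in the 3 Gata4-high libraries. Cd36, a fatty acid transporter, was the exception at -0.19 ± 0.40. Slc27a4, another fatty acid transporter, had 0.65 ± 0.30, and Pnpla2 and Abhd5, a triglyceride lipase and its activator, 0.24 ± 0.22 and 0.29 ± 0.21. With the enterocyte covariate, 8 of the 13 were higher in the 7 libraries and 5 in the 10.

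Among 16 transcription regulators of lipid genes, 10 were higher and 6 lower in VSG in the 7 libraries (median 0.11), and 7 were higher over 10 libraries (median -0.01), beside the same 43.2% and 41.9% of all genes. Creb3l3, a membrane-bound factor that acts on apolipoprotein genes in liver and gut, stood at 337, 383, 479 and 730 CPM in VSG 1, 3, 4 and 5 and at 193.5, 310 and 181.5 in sham 1, 3 and 5. The groups did not overlap, with VSG higher, as for 4.32% of all genes. The log2 fold change of Creb3l3 was 1.08 ± 0.32 (edgeR adjusted p = 0.633). In the Gata4-high libraries it stood at 866 to 1063 CPM, above all others, an order that 6.08% of genes showed. Hnf4a, a nuclear receptor of many enterocyte genes, stood at 652.5 to 947 CPM there and at 839 to 1373 in the others, with overlap and a log2 fold change of 0.25 ± 0.20 in the 7 libraries. Foxa2 had -0.70 ± 0.23, at 2.72 to 6.50 CPM in all libraries. Its groups did not overlap in the 7 libraries either, with VSG lower, and the share of genes like it was not counted. Foxo1, like Foxa2 a forkhead factor, had 0.47 ± 0.21. Creb3l3, Foxa2 and Foxo1 had an unadjusted edgeR p below 0.05 in the 7 libraries, 2 higher and 1 lower. The shares of all genes were 3.70% and 3.26%. The edgeR adjusted p was 0.633 for Foxa2 and 0.704 for Foxo1. Ppard, a nuclear receptor for fatty acids, had 0.29 ± 0.18.

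The lists that do not act in assembly were less one-sided in count, a difference that was not tested. Of 11 other apolipoproteins 8 were tested in the 7 libraries, 6 higher and 2 lower (median 0.18), and over 10 libraries 3 of 6 were higher (median -0.04). Apoe, the most abundant of them, had -0.22 ± 0.19, and Apoo and Apool, mitochondrial proteins despite their names, -0.10 ± 0.21 and 0.01 ± 0.22. Apoa2 had 2.00 ± 0.90 at 0.203 to 4.16 CPM in the 7 libraries. Of the lipase and receptor genes that act on the finished particle, 6 of 11 tested were higher (median 0.09). Cubn, an intestinal receptor for apolipoprotein A-I, had 0.61 ± 0.29, and Lrp1, a remnant receptor, 0.36 ± 0.22. Scarb1 (a high-density lipoprotein receptor), Lpl (lipoprotein lipase) and Vldlr (a lipoprotein receptor) had -0.58 ± 0.25, -0.74 ± 0.50 and -0.64 ± 0.42, all at low levels.

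**Figure D4:**
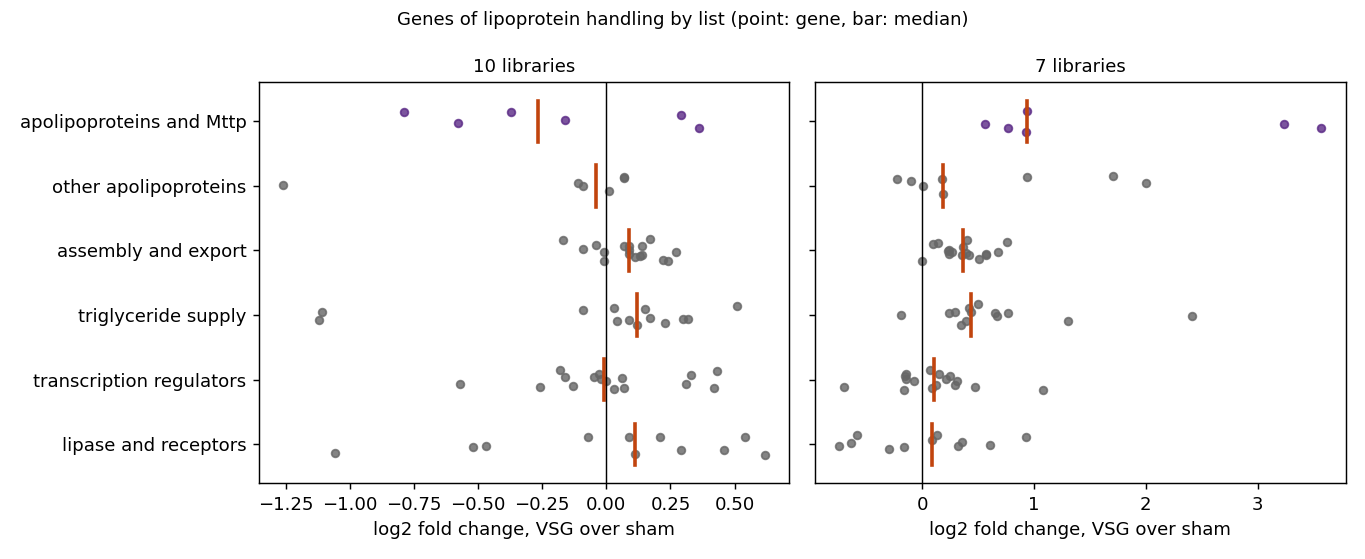
Log2 fold change of VSG over sham for each tested gene (points) in the 6 chylomicron genes and the 5 lists, with list medians as bars, over 10 libraries (left) and over the 7 with Gata4 below 20 CPM (right). Medians lie between -0.27 and 0.12 on the left, and on the right the 17 assembly genes all lie at or right of 0.

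How alike the 6 genes were across the 10 libraries was described by the root mean square difference of log2 CPM after centring each gene, where 0 is the same pattern. The genes share their libraries, and the 3 Gata4-high ones weigh on every value. Apoa4 and Apoc2 were nearest to each other, at 0.85, well under their own spreads of 2.46 and 2.86. Apoc3 was nearest to Mttp, at 0.80, and Mttp to Apob, at 0.66. The last value was under the own spread of Mttp (0.97) but above that of Apob (0.60). Apoa1 and Apob were nearest to each other, at 0.53, which is about as large as their own spreads of 0.52 and 0.60. Within the 7 libraries Apob and Mttp were nearest, at 0.27, Apoa1 was nearest to Apoc3, at 0.51, and Apoa4 and Apoc2 remained nearest to each other, at 0.88. Own spreads were not taken within the 7 libraries. Apoa1 and Apoa4, with Apoc3 between them on chromosome 9, were 2.24 apart over 10 libraries.

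**Figure D5:**
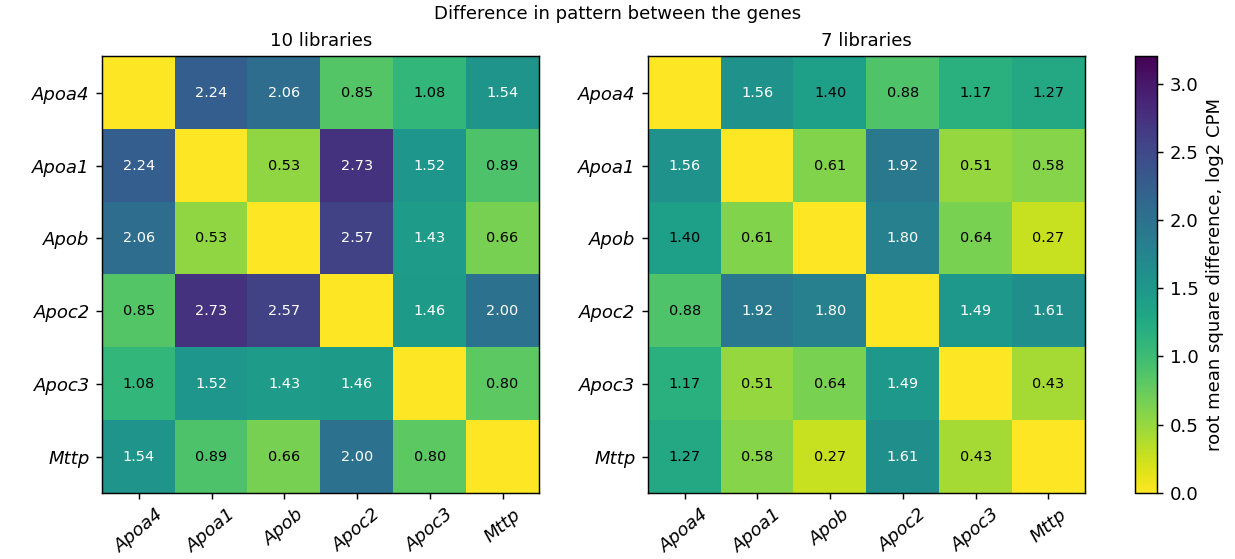
Root mean square difference of centred log2 CPM between each pair of the 6 genes, over 10 libraries (left) and the 7 libraries with Gata4 below 20 CPM (right), where a small value means a like pattern. Apoa4 with Apoc2 (0.85 and 0.88) is alike in both panels, and Apob with Mttp goes from 0.66 to 0.27.

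Among 9247 genes averaging 10 CPM or more, the 3 most like each member were found, as a description of pattern only. Nearest to Apoa4 were Fabp1 (0.81), Acot12 (0.82) and Apoc2 (0.85), and nearest to Apoc2 were Fabp1 (0.60), Cyp4a10 (0.72) and Apoa4. VSG 3 was high for Fabp1 (649 CPM) and Cyp4a10 (12.8 CPM, against at most 0.640 in the other 6), as it was for Apoc2. Mttp was nearest to Sec24d (0.19), Entpd7 (0.22) and Sec22c (0.27), and Apob to Sec23a (0.25), Lysmd3 (0.26) and Slc43a2 (0.27). Apoa1 was nearest to Pla2g12b (0.17), which is needed for lipoprotein export, Cyp4f14 (0.17) and the fatty acid transporter Slc27a4 (0.18). Apoc3 was nearest to Rab30 (0.27), Rbp2 (0.39), which binds retinol in enterocytes, and Aqp3 (0.42).

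Genes next to the members, chosen by position and not by value, did not show the same range. On chromosome 9 the order is Pafah1b2, Sik3, Apoa1, Apoc3, Apoa4, Apoa5, Zfp259 and Bud13. Apoa5, a liver apolipoprotein, was at most 0.724 CPM in any library, and Bud13 stood at 10.25 to 14.7 CPM and Pafah1b2 at 48.15 to 60.25. Sik3, next to Apoa1, stood at 38.5 to 47.0 CPM in the Gata4-high libraries and 23.7 to 36.2 in the others. On chromosome 7 Apoc4 and Apoc1, next to Apoc2, were at most 0.743 and 2.24 CPM, and Apoe stood at 167 to 344.5. Gm10680, annotated antisense to Apoa4, stood at 5.32 to 6.82 CPM in the Gata4-high libraries and at most 2.50 in the others. No source used here says whether the kit kept strand, and Apoa4 and antisense reads cannot be told apart.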

How the data were processed

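RNA-seq of terminal ileum was compared in 5 VSG and 5 sham libraries, numbered as in the sample titles. Libraries were made with an Illumina TruSeq RNA kit and read as 50-base single ends, per the labels' protocols. The authors deposited an estimated count per Ensembl gene and library, of which 61.18% are whole numbers. They also deposited log2 values, which equal the log2 count on a scale per library minus the sham median (0 in 100% of genes). Per the submitters' processing notes, DESeq and the mm9 build were used. The aligner, the counter and the strand setting are not given in the sources used here.

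Counts were rounded and tested with edgeR 4.0.16 in R 4.3.3, chosen to fit counts: filterByExpr, TMM, the quasi-likelihood F test of surgery alone, and adjustment by Benjamini-Hochberg over all genes tested, threshold 0.05. The fit was repeated in the 7 libraries with Gata4 below 20 CPM. Each standard error is the log2 fold change over the square root of F, and log2 CPM values use a prior count of 2. The procedure was tried on simulated counts with 1 mean per gene apart from planted surgery differences. No Gata4-high libraries were simulated, so the trial does not show how the test behaves on these data. Transcript lengths are those of the GENCODE M21 transcript with the longest coding sequence. Alternatives were DESeq2 1.42.0, limma 3.58.1 (voom with and without sample weights, and the deposited log2 values), other scalings and filters, robust estimation, a replicate block, a Gata4 covariate, and each library left out. An enterocyte marker covariate was added after seeing the data.

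The 6 genes and the lists were chosen with earlier results of these data known. From each list the text names up to 4 genes with the lowest p over 10 libraries and up to 2 with the highest mean, plus the 3 genes most like each of the 6, and Gata4, Lct, Fabp6, Slc10a2, Alb and Vil1. Mia3 and Vamp7 were not matched.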

Additional observations from a re-analysis of the deposited data

Results flagged for a closer look

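Apob in VSG 1 lay apart from the other VSG libraries. At 2873 CPM it was below the remaining 4, which stood at 4682 to 4921 CPM, and the gap to the nearest of them was 0.907 of the whole range. Among the 4 VSG libraries with Gata4 below 20 CPM the gap was 0.938 of the range. In 18 groups of 4 or 5 values of the 6 genes checked in this way, this was the case for these 2, both from the same library, and chance gives about 1 in 20. VSG 1 was also the lowest VSG library for Apoa4, Apoc3, Mttp and Gata4. Without it the log2 fold change of Apob in the 7 libraries was 1.09 in place of 0.93.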

How the results depend on the processing

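In the 7 libraries the log2 fold changes of the 6 genes kept their direction under the settings tried, except Apoa1 with the enterocyte covariate (-0.065). None of the 6 passed the adjusted threshold in a setting that gave an adjusted p. DESeq2 gave none for Apoc2 in the 7. Over 10 libraries, 24 of 144 values changed sign. With the Gata4 covariate they were 1.91 for Apoa4, 2.13 for Apoc2, 0.19 for Apoc3 and 0.46 for Mttp. With the deposited log2 values Apoa4, Apoc2 and Mttp had 1.01, 0.39 and 0.19, with limma-voom 0.93, 0.35 and 0.14, and with sample weights 1.15, 0.43 and 0.15, with Apoc3 at 0.0076. These fits average log values, while edgeR models counts, and the part of this in the sign changes was not tested. Apoa1 had -0.11 with the enterocyte covariate.

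The labelled replicate numbers showed no pairing: deviations of same-numbered libraries correlated at 0.035, 0.182, -0.048, -0.319 and -0.065. No VSG library correlated best with its own number. The deviations include those of the Gata4-high libraries, so this check cannot exclude a pairing by feeding or handling. With a replicate block Apoa4, Apoc2 and Mttp had 1.17, 1.02 and 0.19 over 10 libraries, and 2.92, 2.73 and 0.86 in the 7, with 0 genes called in both.

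Leaving out 1 library at a time gave, over 10 libraries, -1.23 to 0.56 for Apoa4, 0.14 to 0.53 for Apoa1, 0.20 to 0.77 for Apob, -1.32 to 0.31 for Apoc2, -1.90 to -0.031 for Apoc3 and -0.52 to 0.27 for Mttp. In the 7 libraries the ranges were 2.10 to 3.88, 0.31 to 1.06, 0.77 to 1.22, 0.76 to 4.55, 0.53 to 1.37 and 0.73 to 1.12 in the same order. Genes called ran from 0 to 0 over 10 libraries, with 11 in DESeq2 and 1 in limma-voom with sample weights. In the 7 they ran from 0 to 2 (2 without VSG 4), with 83 in DESeq2, 2 in limma-voom, 5 with sample weights and 4 with no filter. The cause of these differences was not tested. The nearest member to Apoa1 moved from Apob (0.53) to Apoc3 (0.51), and that to Apob from Apoa1 (0.53) to Mttp (0.27), when the 3 Gata4-high libraries were left out. Upper-quartile factors and library totals moved the median of all genes in the 7 libraries from -0.05 to -0.14 and -0.15. The lowest count of any of these genes in any library was 274.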

Other observations

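Genes at least 2-fold higher in each Gata4-high library than in each other library numbered 111, and of the 6 chylomicron genes Apoc3 was among them. In the 7 libraries that remain, 66.7% of these genes had a higher fitted value in VSG (median log2 fold change 0.20), against 43.3% of all genes tested (median -0.05). Without VSG 3 the difference of group means was taken in place of a new fit. By it 64.0% were higher in VSG (median 0.15), against 48.7% of all genes (median -0.01). The measure differs, so these shares cannot be set directly beside the fitted ones. VSG 3 was the highest of the 7 for 22.5% of the 111, and for 14.5% of all genes. The 111 genes were chosen by their values in these same libraries, so their share is no test of surgery. Of the upper small intestine markers, 6 were tested in the 7 libraries, 2 higher in VSG and 4 lower (median log2 fold change -0.20). These counts are descriptions, and genes of 1 library are not independent of each other.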
